A study of Mus musculus with 14 samples.

Results

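The 7 genes described here encode the kainate receptor subunits (Grik1, Grik2, Grik3, Grik4 and Grik5) and the auxiliary proteins of these receptors (Neto1 and Neto2). They were taken by symbol from a table of 24421 genes, and all 7 had enough reads to be tested among 14897 genes. RNA was sequenced from the hippocampus of 7 naive male mice labelled LPAR2-/- and 7 naive male wild-type (WT) mice of the strain given as 129.C57Bl6, with 1 library per mouse. LPAR2 is a receptor for lysophosphatidic acid, and the mice labelled LPAR2-/- lack a part of exon 2 of its gene, Lpar2, in all cells. The genotypes were bred separately, each in its own colony (the controls of mixed C57BL/6 and 129/SvJ descent), so that WT mice were not littermates of the others and colony cannot be told apart from genotype. Their age is 10 to 12 weeks by the labels but middle-aged to aged by the description of the series, and the study names the tissue as dentate gyrus in one place and as hippocampus in another, so that age and exact region are not known. The question addressed is whether the mice labelled LPAR2-/- differed from WT mice in the RNA of this branch of glutamate receptors.

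Kainate receptors are tetrameric cation channels opened by glutamate. The products of Grik1, Grik2 and Grik3 (GluK1, GluK2 and GluK3) can form channels alone, whereas the high-affinity subunits encoded by Grik4 and Grik5 (GluK4 and GluK5) reach the membrane as functional channels only in combination with them. Neto1 and Neto2 are transmembrane proteins with CUB domains that bind the receptor and slow its closing. In the hippocampus these receptors are best known at the mossy fibre synapse, where granule cells of the dentate gyrus contact CA3 pyramidal cells, and in inhibitory interneurons.

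The libraries held 16373410 to 21992980 counted reads in the WT group and 15434620 to 23258949 in the group labelled LPAR2-/-, with medians of 19964167 and 19499276. Values are given as CPM, that is the counts of a gene after scaling all libraries to one size. Lpar2, the targeted gene, had 27 to 66 counts in WT mice and 144 to 234 in the mice labelled LPAR2-/- (2.36 ± 0.676 against 9.55 ± 1.41 CPM, SD, n = 7 each), a log2 fold change of 2.01 (SE 0.158, edgeR adjusted p = 8.22e-07). The count of Lpar2 was thus higher in all 7 mice labelled LPAR2-/- than in any WT mouse, which goes against the label. Counts of a whole gene do not tell a transcript without the deleted part of exon 2 from a complete one, and every direction below rests on the labels as given. Some libraries stood apart in markers of other tissue, and some marker lists had higher medians in one group. The summed level of the oligodendrocyte markers was 3878 CPM in LPAR2-/- mouse 3 and at most 2029 CPM in WT mice and that of the choroid plexus markers reached 278 CPM in LPAR2-/- mouse 2 and at most 33.0 CPM in WT mice. The sum of 6 meningeal fibroblast markers was 33.0 to 136 CPM in WT mice (median 55.6) and 39.9 to 196 CPM in mice labelled LPAR2-/- (median 116), with a median log2 fold change of 0.88, 4 genes at an unadjusted p under 0.05 and 1 called (Lum, higher). That of 6 striatal markers was 57.7 to 68.2 and 67.1 to 77.8 CPM, all 6 estimates being above 0, with 4 at an unadjusted p under 0.05 and 0 called. WT mouse 2 stood apart in the CA1 markers (343 CPM against a WT median of 124), with a deviation of 1.08 from the WT mean in log2 CPM, and it had the highest level of Grik3 and the lowest of Grik5 among WT mice. Of 5 markers of oligodendrocyte precursors Gpr17 was called lower (log2 fold change -0.66), but 3 estimates were above 0 and the median was 0.03. The part of these tissues in the levels of the 7 genes was not tested.

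The 250 bases before the start sites are shown for Grik5, the most abundant of the genes, for Grik4 and Grik2, whose levels ran in opposite directions among the mice, and for both starts of Neto2, because only the downstream one bounds the exons that were counted. The sequences were taken from RefSeq (build GRCm38.p6), run 5′ to 3′ on the strand of the gene and end at the base before the start site. Capitals mark GGGCGG or its reverse complement, the core of the GC box bound by Sp1. The windows are chr7:25072370-25072619 for Grik5, chr9:42944372-42944621 for Grik4, chr10:49788755-49789004 for Grik2, and chr8:85691010-85691259 and chr8:85700925-85701174 for the downstream and the upstream start of Neto2, all on the minus strand.
Grik5: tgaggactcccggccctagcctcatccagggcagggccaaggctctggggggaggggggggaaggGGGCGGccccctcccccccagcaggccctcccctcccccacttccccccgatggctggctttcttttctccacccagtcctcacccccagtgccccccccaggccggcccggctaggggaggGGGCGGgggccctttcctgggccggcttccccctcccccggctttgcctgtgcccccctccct
Grik4: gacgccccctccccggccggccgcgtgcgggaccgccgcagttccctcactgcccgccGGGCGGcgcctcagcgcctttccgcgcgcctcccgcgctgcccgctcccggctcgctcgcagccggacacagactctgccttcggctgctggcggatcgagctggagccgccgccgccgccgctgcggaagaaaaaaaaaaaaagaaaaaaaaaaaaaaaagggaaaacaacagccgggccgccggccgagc
Grik2: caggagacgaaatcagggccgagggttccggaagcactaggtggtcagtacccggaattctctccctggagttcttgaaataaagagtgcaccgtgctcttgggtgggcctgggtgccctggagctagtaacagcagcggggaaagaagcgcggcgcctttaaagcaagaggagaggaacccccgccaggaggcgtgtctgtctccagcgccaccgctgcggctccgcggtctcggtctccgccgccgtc
Neto2, downstream start: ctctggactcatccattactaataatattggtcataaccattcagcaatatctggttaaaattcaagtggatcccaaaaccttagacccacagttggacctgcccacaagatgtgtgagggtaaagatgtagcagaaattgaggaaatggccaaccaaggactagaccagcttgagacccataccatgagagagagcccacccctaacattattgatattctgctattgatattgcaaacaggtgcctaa
Neto2, upstream start: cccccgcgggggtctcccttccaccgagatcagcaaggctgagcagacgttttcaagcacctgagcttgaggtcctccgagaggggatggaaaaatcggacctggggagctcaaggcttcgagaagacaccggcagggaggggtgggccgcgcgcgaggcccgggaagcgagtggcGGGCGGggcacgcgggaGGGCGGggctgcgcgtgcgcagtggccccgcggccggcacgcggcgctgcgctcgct

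GGGCGG, searched on both strands, was found 2 times in the window of Grik5, 1 time in that of Grik4 and 0 times in that of Grik2. Among 32851 RefSeq windows of the same length, 32.7% held it at least 1 time. TATAAA, the letters of a TATA box, was found in none of the 5 windows on either strand and in 12.4% of all windows. The G and C content was 75.2% for Grik5, 69.6% for Grik4 and 62.8% for Grik2, against a median of 52.4% over all windows. The starts of Neto2, which lie 9915 bases apart, differed in base composition. The downstream window had 42.4% G and C with 0 CG dinucleotides and 0 copies of GGGCGG, whereas the upstream window had 72.0% with 30 CG dinucleotides and 2 copies.

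The genes lie on 7 chromosomes, and in the mouse genome build mm10 their counted exons add up to 3660 bases for Grik1 (chr16:87895897-88290258, minus strand), 4872 for Grik2 (chr10:49099463-49788754, minus), 8842 for Grik3 (chr4:125490831-125714173, plus), 3488 for Grik4 (chr9:42520412-42944371, minus), 3838 for Grik5 (chr7:25009851-25072369, minus), 3531 for Neto1 (chr18:86394952-86501897, plus) and 5646 for Neto2 (chr8:85636588-85691009, minus). All are annotated as protein coding. The counted exons of Grik4 share 59 bases (1.69%) with a small RNA gene on the same strand, and those of Neto1 219 bases (6.20%) with an antisense gene. Neither of these genes has a row in the table, and the reads were counted by strand. For Neto2 the GENCODE annotation places the start at position 85700924, the upstream of the starts shown above, and no exon between it and position 85691009 was counted. The level of Neto2 given below therefore leaves out the reads of its first exons. GENCODE also places the 3′ ends of Grik2, Grik4 and Neto1 beyond their counted exons, at positions 49094833, 42518135 and 86506718. Any reads there were left out, so the levels of these genes depend on the annotation as well.

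Per kilobase of counted exon, Grik5 was the most abundant of the 7 genes, with 78.3 CPM per kilobase on average over the 14 mice, and Grik1 the least, with 3.32. The level of Grik5 was 23.6 times that of Grik1. Grik5 was above Grik4, the next in order, in 14 of 14 mice. Grik4 (23.1 CPM per kilobase), Grik2 (22.2) and Neto1 (20.1) formed a group whose order varied from mouse to mouse, with Grik4 above Grik2 in 8 of 14 mice and Grik2 above Neto1 in 8 of 14. Neto1 was above Grik3 (10.0 CPM per kilobase), Grik3 above Neto2 (6.69) and Neto2 above Grik1 in 14 of 14 mice each. Among the 14897 tested genes, Grik5 stood at percentile 95.1 of the level per length and Grik1 at percentile 29.4.

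**Figure D1:**
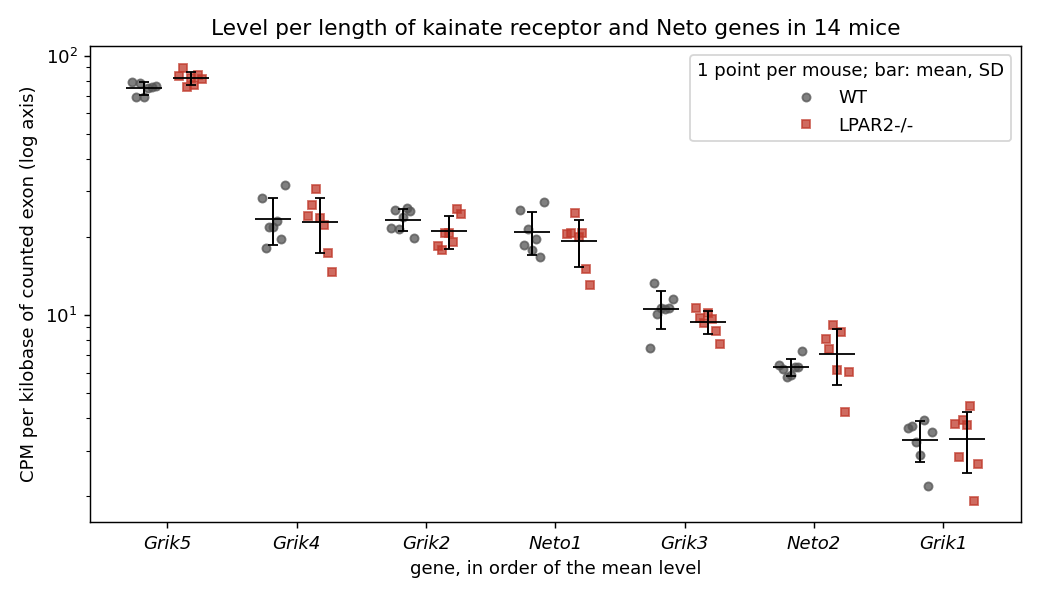
Level of the 7 genes in CPM per kilobase of counted exon (log axis), 1 point per mouse, with WT mice as circles and mice labelled LPAR2-/- as squares, and the mean ± SD of each group of 7 as bars. Grik5 lies above the other genes in every mouse, Grik4, Grik2 and Neto1 lie together with means of 20.1 to 23.1, and the genotypes overlap for each gene.

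Within the sum of the 5 subunit genes per length, Grik5 made up 55.2 ± 1.95% in WT mice and 59.2 ± 2.79% in mice labelled LPAR2-/- (SD, n = 7 each). The ranges overlapped, from 53.2% to 58.2% and from 53.9% to 62.2%. The subunits that form channels alone (Grik1, Grik2 and Grik3) made up 27.6 ± 3.26% and 24.4 ± 1.99%. The sum itself was 135 ± 5.52 CPM per kilobase in WT mice and 138 ± 5.50 in mice labelled LPAR2-/-. Neto1 exceeded Neto2 per length by a ratio of 3.32 ± 0.497 and 2.77 ± 0.484. No test was run on these shares and ratios, which are a description of the balance between subunits.

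None of the 7 genes passed an adjusted p of 0.05 between the genotypes (edgeR's quasi-likelihood test with Benjamini-Hochberg adjustment over 14897 genes, 7 against 7 mice), where 1009 of all tested genes, or 6.77%, did (3.32% higher and 3.46% lower in mice labelled LPAR2-/-). At an unadjusted p under 0.05, 1 of the 7 (Grik5, higher) passed, against 22.4% of all genes in both directions and 11.3% in that direction, and DESeq2 gave the same counts of 0 and 1. The estimated log2 fold changes lay between -0.17 (Grik3) and 0.17 (Neto2), 3 above and 4 below 0, while the median over all genes was 0.003. In no gene of the 7 were the genotypes separated without overlap, as they were in 1.77% of all genes. Where an interval is given below, it is the 95% interval of the log2 fold change of mice labelled LPAR2-/- over WT mice, so that a positive value means a higher level in the former.

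Grik1, Grik2 and Grik3 encode the subunits able to form channels alone. Grik1 had 8.0, 12.9 and 14.4 CPM in WT mice (lowest, median, highest) and 7.05, 13.8 and 16.3 CPM in mice labelled LPAR2-/-. The lowest and the highest value were both found in mice labelled LPAR2-/-, and the WT range lay within theirs. The log2 fold change was 0.01 (SE 0.167, interval -0.34 to 0.37, adjusted p = 0.976), which leaves room for 0.790 to 1.29 times the WT level. Grik2, whose product is the principal subunit of mossy fibre receptors on CA3 cells, had 96.6, 115.9 and 126 CPM in WT mice and 87.0, 100.6 and 125 CPM in mice labelled LPAR2-/-. In 3 mice labelled LPAR2-/- its level was below that of every WT mouse, and the ranges overlapped over most of their length. Its log2 fold change was -0.15 (SE 0.0850, interval -0.33 to 0.03, adjusted p = 0.304). Grik3 had 65.7, 94.0 and 117 CPM in WT mice and 68.3, 85.2 and 94.0 CPM in mice labelled LPAR2-/-. Its lowest and its highest value both came from WT mice (numbers 1 and 2). The log2 fold change was -0.17 (SE 0.10, interval -0.38 to 0.05, adjusted p = 0.350), and it moved with either of these mice. It was -0.24 (adjusted p = 0.0589) without WT mouse 1 and -0.10 (adjusted p = 0.583) without WT mouse 2.

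Grik4 and Grik5 encode the high-affinity subunits. Grik4 had 63.4, 75.9 and 111 CPM in WT mice and 50.9, 82.2 and 107 CPM in mice labelled LPAR2-/-. The 2 lowest levels were those of LPAR2-/- mice 6 and 7 (60.7 and 50.9 CPM), while the median was higher in the mice labelled LPAR2-/-. The log2 fold change was -0.04 (SE 0.160, interval -0.39 to 0.30, adjusted p = 0.910). Grik5 had 264, 291 and 304 CPM in WT mice and 290, 314 and 345 CPM in mice labelled LPAR2-/-. In 5 of 7 mice labelled LPAR2-/- its level was above that of every WT mouse, in 3 of 7 WT mice it was below that of every mouse labelled LPAR2-/-, and the ranges met between 290 and 304 CPM. The means were 287 ± 15.96 and 314 ± 18.5 CPM, and the log2 fold change was 0.13 (SE 0.0453, interval 0.03 to 0.23, unadjusted p = 0.0106, adjusted p = 0.0972). Grik5 thus had the smallest p of the 7 genes and missed the threshold, with adjusted values from 0.0543 (without LPAR2-/- mouse 3) to 0.197 (without WT mouse 2) over the alternative settings. Without LPAR2-/- mouse 2, which had the highest level of Grik5 and the choroid plexus markers named above, it was 0.175. The upper bound of its interval corresponds to 1.17 times the WT level.

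Neto1 and Neto2 encode the auxiliary proteins. Neto1 had 58.8, 69.4 and 96.5 CPM in WT mice and 46.1, 72.3 and 87.2 CPM in mice labelled LPAR2-/-. The 2 lowest values were again those of LPAR2-/- mice 6 and 7 (53.1 and 46.1 CPM), and the highest 2 came from WT mice 7 and 1. Its log2 fold change was -0.12 (SE 0.141, interval -0.42 to 0.18, adjusted p = 0.657), and with 1 mouse left out it lay between -0.19 (without LPAR2-/- mouse 3) and -0.05 (without WT mouse 7). Neto2 had 32.5, 35.6 and 41.0 CPM in WT mice and 23.8, 41.6 and 51.8 CPM in mice labelled LPAR2-/-. Its level was above every WT mouse in 4 mice labelled LPAR2-/- and below every WT mouse in 1 (number 6), so that the narrow WT range lay inside the wide one. The coefficient of variation was 7.71% in WT mice and 24.4% in mice labelled LPAR2-/-, and this difference in spread was not tested. The log2 fold change of Neto2 was 0.17 (SE 0.134, interval -0.11 to 0.46, adjusted p = 0.477), and it lay between 0.10 (without LPAR2-/- mouse 3) and 0.27 (without LPAR2-/- mouse 6, adjusted p = 0.110).

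**Figure D2:**
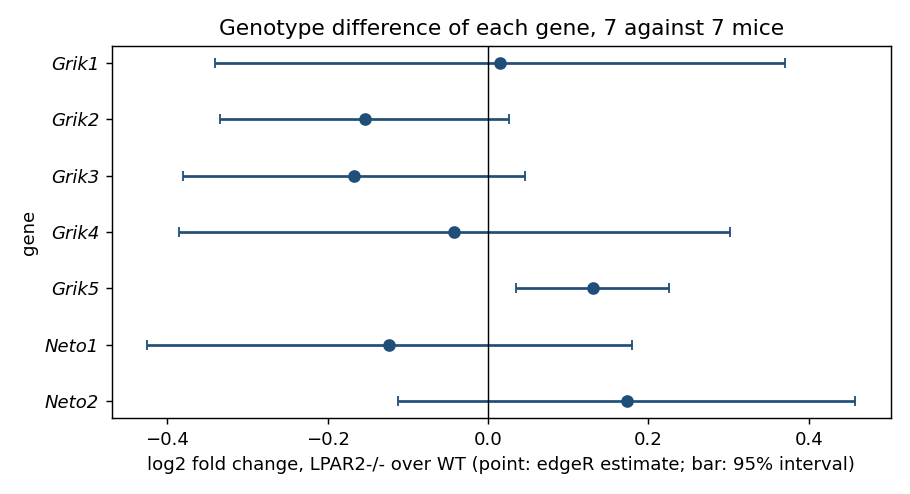
Log2 fold change of each gene, mice labelled LPAR2-/- over WT mice (7 against 7), as the edgeR estimate (points) with its 95% interval (bars). The interval of Grik5 (0.03 to 0.23) lies above 0 before adjustment over all genes, and those of the other 6 genes include 0.

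The 7 genes differed in how evenly they were expressed among mice of 1 genotype. The SD of log2 CPM within the genotypes was 0.0831 for Grik5, which is percentile 39.1 among 634 genes of like level (mean log2 CPM within 0.5). It was 0.327 for Grik4 (percentile 98.3), 0.291 for Neto1 (97.6), 0.284 for Neto2 (96.5), 0.210 for Grik3 (94.2), 0.360 for Grik1 (93.6) and 0.175 for Grik2 (91.2). Hence, 6 of the 7 genes varied more among mice than 9 in 10 genes of like level, and Grik5 did not. The SE of the genotype differences followed the order of these SDs, from Grik5 with the smallest to Grik1 with the largest.

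Among these variable genes, some were high and low in the same mice and others were not. After removal of the genotype mean, the deviations of Grik4 and Neto1 had a Pearson correlation of 0.95 over the 14 mice (Spearman 0.94). The Pearson value was 0.91 without the 2 mice farthest from the median of Grik4. In LPAR2-/- mouse 3 and WT mouse 7 both genes were high (deviations in log2 CPM of 0.47 and 0.46 for Grik4, 0.39 and 0.40 for Neto1), and in LPAR2-/- mouse 7 both were low (-0.60 and -0.53). Grik2 ran against them, with a correlation of -0.77 to Grik4 and -0.80 to Neto1. Its highest deviations, 0.30 and 0.23, were those of LPAR2-/- mice 6 and 7, where Grik4 had -0.35 and -0.60. Neto2 moved with Grik1 (0.72) and with Neto1 (0.67), while the correlation of Grik5 to each of the other 6 genes lay between -0.35 and 0.16. The correlation of Grik5 to Grik2 was -0.51 without the 2 mice farthest from the median of Grik2. Its correlation to Grik4 was 0.46 without the 2 mice farthest from the median of Grik4. The correlation of Grik3 to Grik4 was 0.06 over all mice and 0.73 without the 2 mice farthest from the median of Grik3. The points of these correlations share the library, its depth and the dissected tissue, and they describe these 14 mice.

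**Figure D3:**
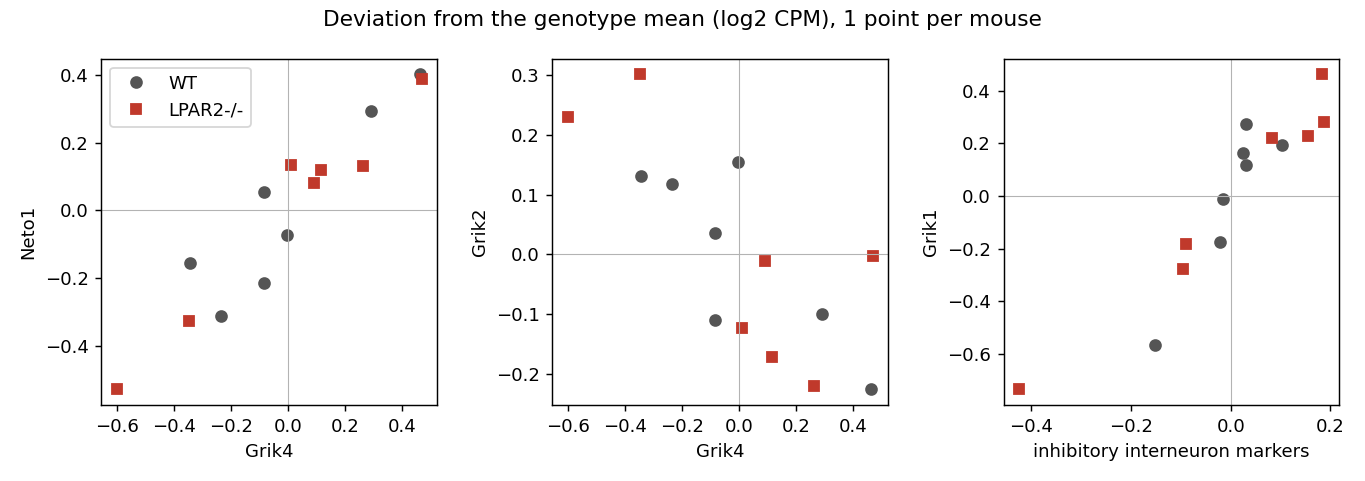
Deviation of each mouse from its genotype mean in log2 CPM, for Neto1 against Grik4, Grik2 against Grik4, and Grik1 against the mean of 10 interneuron markers, with WT mice as circles and mice labelled LPAR2-/- as squares. Over all 14 mice the Pearson correlations are 0.95, -0.77 and 0.93.

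The same mice differed in markers of hippocampal cell types, which were compared as the mean log2 CPM of a list. Grik1 followed the 10 interneuron markers (among them Gad1, Gad2, Sst and Pvalb) with a correlation of 0.93 over the 14 mice (0.89 without 2 mice). Neto2 followed them with 0.84 (0.69 without 2 mice). The 2 mice left out here and below are those farthest from the median of the marker list. Grik4 and Neto1 followed the 6 CA3 markers (among them Bok, Iyd and Cpne4) with 0.78 and 0.77, and Grik2 ran against them with -0.83. Against the 6 dentate gyrus markers (among them Prox1 and Dsp) the correlation was -0.85 for Neto1, -0.76 for Grik4, -0.86 for Grik1 and 0.58 for Grik2, the last being 0.27 without 2 mice. Grik5 ran against the CA1 markers (-0.68) and the astrocyte markers (-0.67), whose sums were 109 to 343 and 1561 to 1835 CPM in WT mice and 89.6 to 181 and 1507 to 1816 CPM in mice labelled LPAR2-/-, and their part in the difference of Grik5 was not tested. Grik3 ran against the 5 microglia markers (-0.74, and -0.64 without 2 mice), whose sum was 230 to 290 CPM in WT mice (median 241) and 235 to 288 CPM in mice labelled LPAR2-/- (median 275), and their part in the difference of Grik3 was not tested. In LPAR2-/- mouse 6 the deviation was -0.74 for Grik1, -0.70 for Neto2, -0.42 for the interneuron markers and 0.33 for the dentate gyrus markers. In these bulk libraries fewer cells of a type and less RNA per cell cannot be told apart.

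**Figure D4:**
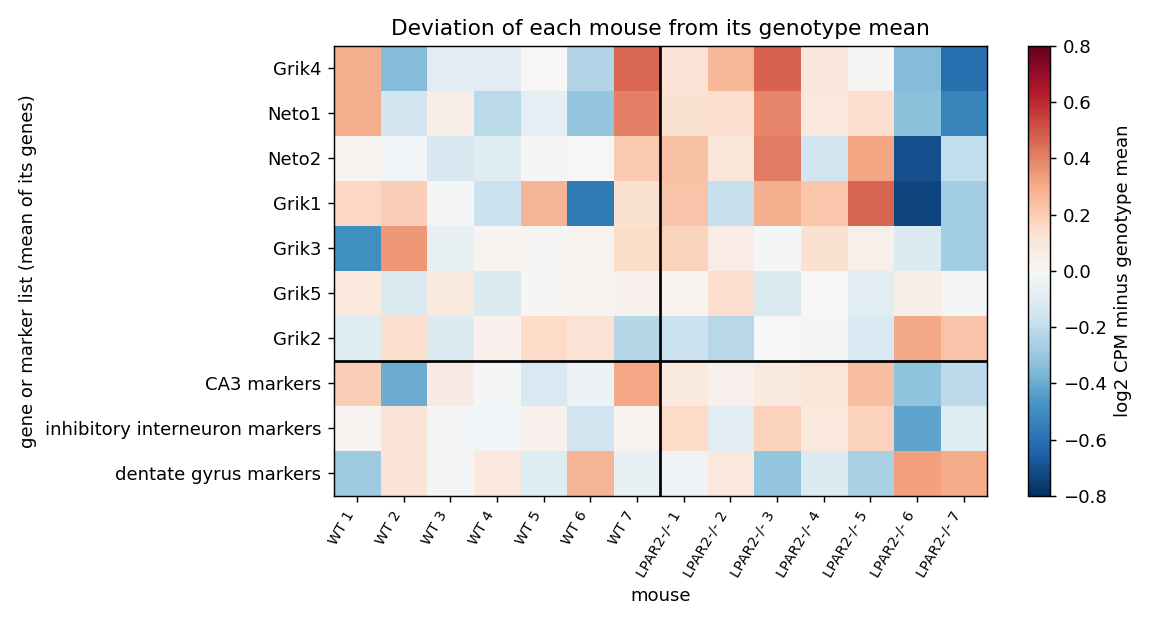
Deviation of each mouse from its genotype mean (colour, log2 CPM) for the 7 genes (upper rows) and the mean of 3 marker lists (lower rows), with WT mice on the left and mice labelled LPAR2-/- on the right. Grik4 and Neto1 share their pattern with the CA3 markers, Grik2 has the opposite one, Grik1 resembles the interneuron markers, and Grik5 stays between -0.12 and 0.14.

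Between the genotypes these marker lists overlapped. The sum of the CA3 markers ranged from 272 to 412 CPM in WT mice and from 273 to 366 CPM in mice labelled LPAR2-/-, with 0 of 6 genes called. That of the interneuron markers ranged from 741 to 841 and from 626 to 868 CPM (0 of 10 called), and that of the dentate gyrus markers from 701 to 1072 and from 714 to 1143 CPM. Of the 6 dentate gyrus markers only Tdo2, a tryptophan dioxygenase, passed the test (log2 fold change 0.45, SE 0.109, edgeR adjusted p = 0.0244), and no marker of the 3 lists was at 0. The estimates were above 0 for 5 of the 6 dentate gyrus markers (median 0.15) and below 0 for 5 of the 6 CA3 markers (median -0.07), with 1 CA3 marker, Homer3, at an unadjusted p under 0.05. The estimate for Grik2 was below 0 with each of these lists as a covariate. With the mean of the CA3 markers as a covariate, an alternative chosen after the values were seen, its log2 fold change was -0.24 with an adjusted p of 0.00823, and Grik2 was the 1 gene of the 7 that was called. All genes called numbered 1812 of 14897 in that fit, against 1009 in the main fit, and 1 of 7 is near that share. With the dentate gyrus or the interneuron markers as the covariate none of the 7 was called, and Grik2 was at -0.22 (adjusted p = 0.0659) and -0.19 in these fits. All genes called numbered 1807 and 1277 there. The part of tissue composition in the difference of Grik2 was not tested.

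For each gene the 3 genes of most similar deviation among 11659 tested genes with a mean of at least 5 CPM were determined (Pearson correlation over 14 mice). Grik1 was closest to Hnmt, which encodes histamine methyltransferase (0.96), and to Sst, which encodes somatostatin (0.95). Grik4 was closest to Stx1a, a gene of the presynaptic fusion machinery (0.96), Lsm11 (0.95) and Ap2a2, an endocytic adaptor gene (0.95). Neto1 was closest to Tuba8, Spock1 and Prkca (0.97 each). Prkca encodes a protein kinase C, and its estimate between the genotypes was -0.25 on the log2 scale (adjusted p = 0.290), and neither Tuba8 nor Spock1 was called. Neto2 was closest to Plcxd2, Tmem196 and Dner (0.93 each), Grik2 to Zfp58 (0.92), Gnpda1 (0.91) and Mex3c (0.90), Grik3 to Fam160b1 (0.88), Zmym3 (0.86) and Klhdc10 (0.84), and Grik5 to Psmc4 (0.92), Dmwd (0.91) and Fbxl16 (0.91). Of these neighbours in pattern, Dmwd and Fbxl16 came nearest to the threshold, with log2 fold changes of 0.15 and 0.14 and adjusted p of 0.0858 and 0.0945, beside 0.13 and 0.0972 for Grik5.

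The other ionotropic glutamate receptors and the proteins that bind, move or modify kainate receptors gave 0 calls, against 6.77% of all genes. Of 13 AMPA, NMDA and delta receptor subunit genes, 1 had an unadjusted p under 0.05, against 22.4% of all genes, with a median log2 fold change of -0.001. That gene was Grin1, the obligatory NMDA receptor subunit, with 581 ± 33.9 CPM in WT mice and 627 ± 35.2 CPM in mice labelled LPAR2-/- (log2 fold change 0.11, SE 0.0458, adjusted p = 0.158). Of the AMPA receptor genes Gria4 had the smallest p (-0.08, adjusted p = 0.707), and of the delta receptor genes Grid1 (0.09, adjusted p = 0.266). Per length, the AMPA receptor genes summed to 461 ± 20.6 CPM per kilobase in WT mice and 458 ± 8.82 in mice labelled LPAR2-/-, against 135 and 138 for the 5 kainate receptor genes. The NMDA receptor genes summed to 154 ± 7.36 and 164 ± 7.58, with ranges of 145 to 162 and 157 to 178 that overlapped, and these sums were not tested.

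Of 32 partners, 5 had an unadjusted p under 0.05, against 22.4% of all genes, 12 estimates being above and 20 below 0 with a median of -0.03. Among the trafficking partners Rab11a, a GTPase of recycling endosomes, had 111 ± 6.17 CPM in WT mice and 102 ± 2.91 CPM in mice labelled LPAR2-/- (log2 fold change -0.12, adjusted p = 0.0734). Kif17, the kinesin that carries kainate receptors into dendrites, had an estimate of -0.24 on the log2 scale (adjusted p = 0.0834). Both adenosine deaminases that edit receptor RNA, Adarb1 and Adar, had estimates below 0 (-0.16 and -0.11, adjusted p = 0.0810 and 0.119). Adarb1 is known for editing the pore site in Grik2 RNA. Dlg1 was the scaffold gene with the smallest p (-0.10, adjusted p = 0.247), and Cdh2, an adhesion gene, that of the synaptic organisers (-0.09, adjusted p = 0.260).

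**Figure D5:**
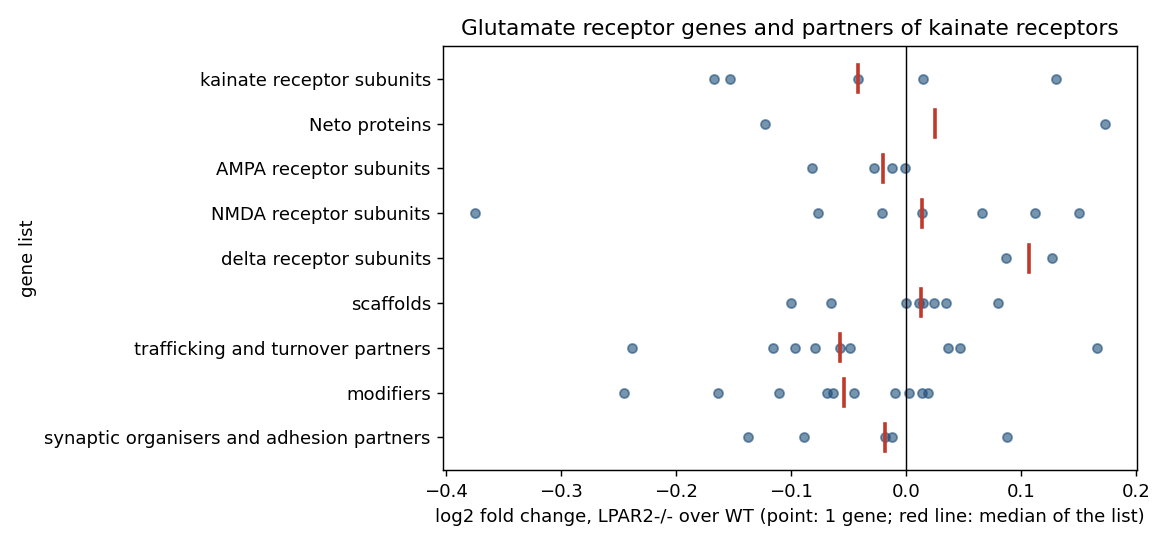
Log2 fold change (mice labelled LPAR2-/- over WT mice) of each gene in the lists of ionotropic glutamate receptor subunits and of partners of kainate receptors, 1 point per gene, with the median of a list as a red line. No gene shown passed the adjusted p of 0.05, and the estimates of the 32 partners lie between -0.25 and 0.17.

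The genes called around the 7 loci were counted within 5 Mb to either side. Around Neto2, 23 of 90 tested genes were called (25.6%, 10 higher and 13 lower), against 6.77% of all genes. Neto2 lies 15.8 Mb from Lpar2 on chromosome 8, and it was itself not called. Around Grik1 the share was 13.5% (7 of 52), around Grik4 11.7% (9 of 77), around Grik3 8.33% (10 of 120) and around Grik5 3.05% (4 of 131). Around Grik2 (18 genes) and Neto1 (14 genes) 0 were called. These shares are a description, and the part of the separate breeding of the colonies in them was not tested.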

How the data were processed

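Libraries of total hippocampal RNA depleted of ribosomal RNA were sequenced from 14 mice, and the groups were taken from the labels. The raw counts per gene deposited by the authors were made with featureCounts 1.6.3 (strand setting 2) from STAR alignments to mm10, after trimming with cutadapt 1.18. A deposited table of normalized values was not used, because its decimal points were lost.

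Calculations used R 4.3.3, edgeR 4.0.16, limma 3.58.1 and DESeq2 1.42.0. Genes passing filterByExpr were normalized by TMM and tested with edgeR's robust quasi-likelihood F test, 7 against 7 mice without covariates. Log2 CPM had a prior count of 2. The procedure was tested on simulated data. Counting depth limits the low values, and p-values set the genotype difference against the spread between mice within the groups.

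The members and gene lists were chosen with earlier results of these data known. Named genes were the 7 members, Lpar2, receptor family and partner genes past the threshold or with the smallest p of their list, and the 3 genes most similar to each member. Kif17, Adar and the marker genes were added after their values were seen. Epb41l1 is listed under its older symbol (Epb4.1l1). Values of 2 genes are not reported here. Alternatives were DESeq2, other scalings and filters, a fit without the robust option, a replicate block, each mouse left out, and marker covariates (added later).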

Additional observations from a re-analysis of the deposited data

Results flagged for a closer look

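The level of Neto2 in WT mouse 7, 41.0 CPM, stood apart from the other 6 WT mice, the next of which was at 36.1 CPM. Its gap to that mouse made up 0.579 of the range of the group, above the critical value of 0.568 for 7 samples. Of the 14 groups examined (7 genes in each genotype) this was the 1 that passed, and chance flags about 1 in 20 groups. The same mouse had the highest WT levels of Grik4 (111 CPM) and Neto1 (96.5 CPM).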

How the results depend on the processing

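None of the 7 genes was called with DESeq2 in place of edgeR, with its size factors or with upper-quartile scaling, with either filter (none, or a minimum of 10 counts per library), with no robust option, with the replicate block, or with any 1 of the 14 mice left out. Grik2, Grik3, Grik5, Neto1 and Neto2 kept their direction in all 21 of these fits, but 3 of them moved by over 1.5 times with 1 mouse left out. Grik3 (-0.17) was -0.10 without WT mouse 2, Neto1 (-0.12) was -0.05 without WT mouse 7 or LPAR2-/- mouse 7, -0.07 without WT mouse 1 or LPAR2-/- mouse 6 and -0.19 without LPAR2-/- mouse 3, and Neto2 (0.17) was 0.10 without LPAR2-/- mouse 3 and 0.27 without LPAR2-/- mouse 6, where its adjusted p was 0.110. Grik1 and Grik4, whose estimates are close to 0, did not. With a mouse left out, Grik1 ranged from -0.064 to 0.11 and Grik4 from -0.13 to 0.044, and with mouse numbers as the replicate block Grik1 had -0.0029. The labels do not pair mice of the same number, and whether they were paired is not known. The correlations of their deviations lay between -0.33 and 0.31, with 3 of 7 above 0.1 and 3 of 7 closest to their own number. The replicate block gave 586 called genes in place of 1009, and an adjusted p of 0.187 for Grik5. Leaving out 1 mouse gave 567 (without WT mouse 2) to 1385 (without WT mouse 1), and 611, 596, 654 and 669 without LPAR2-/- mouse 1 and WT mice 5, 6 and 4. The upper quartile moved the median of all genes to 0.023 and the share of higher calls from 49% to 62% (616 higher, 377 lower). With marker covariates, chosen after the data were seen, Grik4 was at 0.10 (dentate gyrus), 0.11 (CA3) and 0.0049 (interneuron markers). Neto1 was at 0.017 (dentate gyrus), 0.00069 (CA3) and -0.070 (interneuron markers). Grik1 was at 0.17 (dentate gyrus), 0.074 (CA3) and 0.10 (interneuron markers), and Neto2 at 0.26 (dentate gyrus). In each of these fits 3 of the 7 genes had an unadjusted p under 0.05, and the share of all genes at that p is not given here. Calls among all 14897 genes numbered 1807 (dentate gyrus), 1812 (CA3) and 1277 (interneuron markers), against 1009 in the main fit. The CA3 covariate gave 1 call among the 7 genes, Grik2, a share near that of all genes in that fit. The cause was not tested. Without division by length, Grik2 ranked 2, Grik3 3, Grik4 4 and Neto1 5, and Grik5 was first in 14 of 14 mice in each setting. Around the 7 genes 10.6% of genes within 5 Mb were called, 13.8% within 2 Mb and 7.69% within 10 Mb, against 6.77% of all genes. The surroundings of Neto2 alone held 23 of the 53 calls within 5 Mb, 17 of 31 within 2 Mb and 29 of 80 within 10 Mb. Depth limits Grik1 most, with 118 to 332 counts per mouse.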
